A study of Mus musculus with 6 samples.

Results

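The Desmin-positive, CD45-negative areas of mouse cholangiocarcinoma with intact Cd274 made up 3 of the 6 profiled regions. They were chosen by genotype and area number alone, areas 14, 15 and 16, here regions 1, 2 and 3. Each came from a tumour of the SB mouse cholangiocarcinoma cell line in a mouse labelled Cd274+_+Col1A1Cre, that is with both Cd274 copies intact and with Cre recombinase driven from the promoter of a collagen gene, Col1a1. With no floxed allele, the Cre leaves Cd274, the gene of PD-L1, whole. The other 3 regions of the series, labelled Cd274F_F with the same Cre, were not used here, so nothing below is a genotype effect. The labels name no age, sex or way of making the tumours, and tie no region to an animal. Regions may share an animal, and their spread may be partly technical.

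Cholangiocarcinoma is a cancer of bile duct cells that typically grows within dense connective tissue. Much of that tissue is laid down by cancer-associated fibroblasts (CAFs), which in liver can arise from hepatic stellate cells, the vitamin A-storing pericytes of the sinusoid, or from portal fibroblasts around the bile ducts. Activated stellate cells make fibrillar collagen and contractile proteins. Desmin is an intermediate filament of stellate and muscle cells, and CD45, encoded by Ptprc, marks leukocytes. The mask therefore aimed at fibroblasts and stellate cells. In the GeoMx whole transcriptome assay, probes on the section carry sequencing tags, and light releases the tags of a drawn mask to be counted. Tags come from a thin area of tissue and not from sorted cells, and fewer cells of a type and less RNA per cell cannot be told apart.

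Each region gave a signal for 13264 targets and a negative probe, which binds no mouse transcript. The summed signal was 720786, 724323 and 1024180 in regions 1, 2 and 3, and the negative probe read 7.14, 6.84 and 9.41. Region 3 was thus brighter in both. Levels are therefore given as the ratio to the negative probe of the same region, and all levels below are in that unit, times the negative probe, with the SD over 3 regions. The ratio also depends on how well each probe binds, so an order of genes is an order of probe signals and not of transcript numbers. There is no second group and no test. Differences between regions are differences between single measurements. An order of regions below is that of these ratios, and as deposited, with no scaling, region 3 was the highest for 78.9% of all targets. Cd274 itself read 2.09, 2.93 and 2.81, and a row named Cre, which the sources do not describe, 1.64, 2.81 and 2.92, both close to background.

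In regions 1, 2 and 3 the median target read 3.88, 4.22 and 4.32 times the negative probe. Of 13264 targets 7428 (56.0%) reached 3 times the negative probe in every region, the level called detected below, 1802 reached 10 times and 56 reached 100 times. At the other end, 565 targets (4.26%) stayed under 2 times in every region. Each count of detected list members below is to be read beside the 56.0% of all targets. Such counts cover only the listed genes that have a target, and some lists lack a target for many of their genes. The signal was spread over many genes. The 100 targets with the highest mean held 15.1%, 15.0% and 15.1% of the summed signal, and 50% of it took 1542, 1607 and 1546 targets. Of the 100 brightest targets of each region, 75 were common to all 3.

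The brightest named genes include ones typical of stroma, of tumour epithelium and of liver. Col1a1, the main chain of type I collagen, read 538, 769 and 522 in regions 1, 2 and 3, and Col3a1, the chain of type III collagen, read 380, 539 and 755. Spp1, osteopontin, a secreted phosphoprotein made by bile duct tumour cells and by macrophages, read 749, 578 and 397. Alb, serum albumin and the leading transcript of hepatocytes, read 587, 443 and 414. The means were 610 ± 138 for Col1a1, 575 ± 176 for Spp1, 558 ± 189 for Col3a1 and 481 ± 92.4 for Alb (SD, n = 3 each). Ranks 1, 2, 4 and 5 thus lie within the spread between regions. Each region had its own leader, Spp1 in region 1, Col1a1 in region 2 and Col3a1 in region 3. LOC118568792, a predicted gene not named in the reference table, held rank 3 at 574 ± 99.6.

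**Figure D1:**
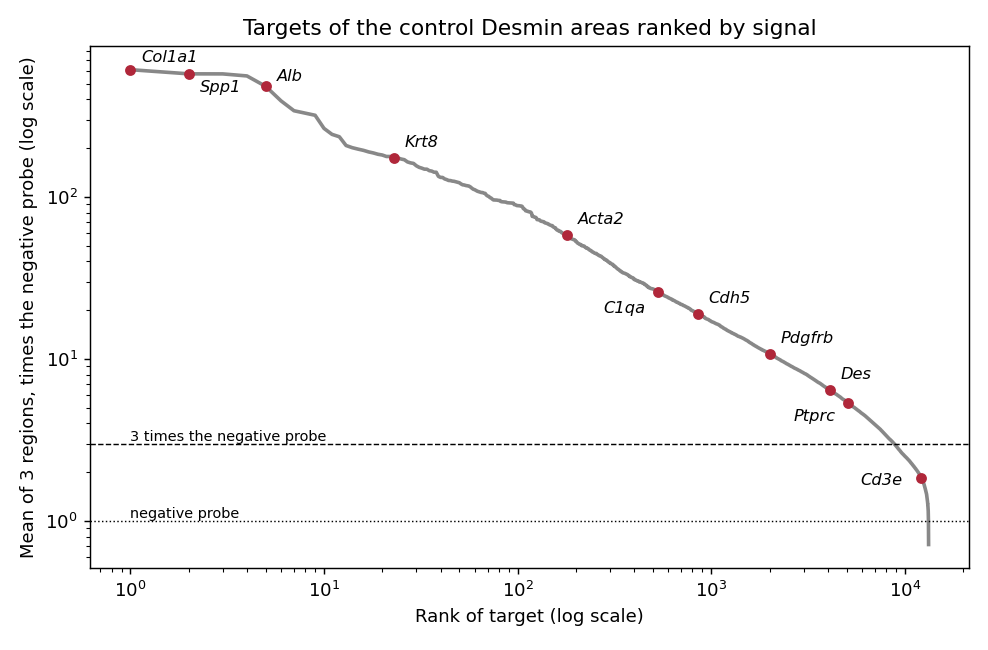
All 13264 targets ordered by mean level over 3 regions, in times the negative probe, both axes logarithmic. Col1a1, Spp1 and Alb, at ranks 1, 2 and 5, read 610, 575 and 481, Des and Ptprc sit at 6.43 and 5.35, and Cd3e lies at 1.85, near the dotted line of the negative probe.

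Below these, C3, the central complement component, read 451, 360 and 363. Ubb and Ptma, ubiquitin and prothymosin, read 340 ± 15.0 and 329 ± 11.8 and varied little. Other targets among the 25 brightest encode the cytoskeleton (Actg1, Tmsb4x, Actb), glycolysis (Gapdh) and translation (Rpl41, Eef2). Sparc, a collagen-binding matricellular protein, read 171, 231 and 220. Col1a2, the partner chain of Col1a1, read 157, 246 and 141, and like Col1a1 was highest in region 2. Plasma proteins followed, the lipid carrier Apoe with 144, 178 and 282 and the iron carrier Trf with 140, 153 and 268, both highest in region 3. Krt8, a keratin of simple epithelia, read 207, 158 and 159 and was highest in region 1, though as deposited it was highest in region 3. Igfbp3, a secreted binder of insulin-like growth factors, had the widest range of the 25 as a fold, at 84.8, 234 and 215. Clu, Igfbp7 and Fth1, a chaperone, a matrix-bound growth factor binder and ferritin, read 178 ± 7.35, 174 ± 23.6 and 171 ± 24.6.

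**Figure D2:**
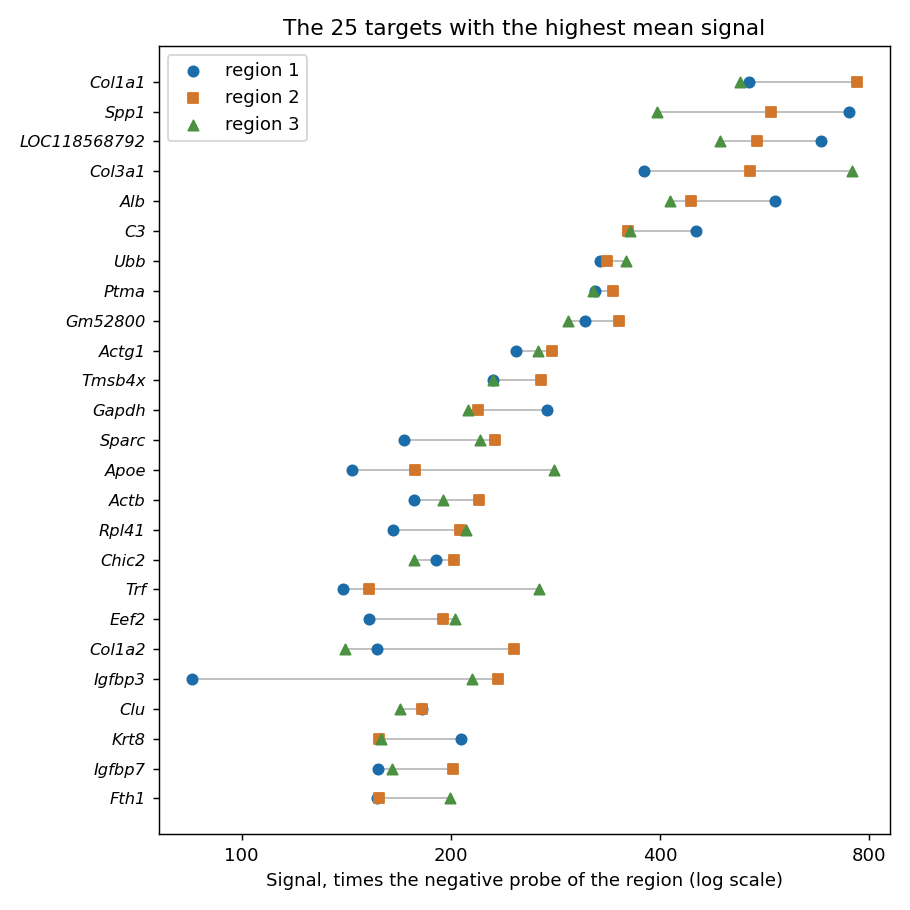
Level of the 25 brightest targets in each region, in times the negative probe on a logarithmic axis; each point is 1 region. Spp1 and Alb are highest in region 1, Col1a1 and Col1a2 in region 2 and Col3a1, Apoe and Trf in region 3, while Ubb, Ptma and Clu barely move.

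Markers of fibroblasts, the cells the areas are labelled for, were bright. All 22 genes of the pan-fibroblast list had a target, their median level was 49.7 against 4.17 for all targets, and 20 of 22 were detected in every region. Beyond the collagens, Fn1, fibronectin, read 155, 175 and 164, Vim, the mesenchymal filament vimentin, 97.6, 121 and 150, and Dcn, the proteoglycan decorin, 39.5, 61.9 and 86.0. Region 3 was the highest for the latter pair. Probes for receptors that define fibroblasts were far dimmer. Pdgfrb, the platelet-derived growth factor receptor of stellate cells and pericytes, read 7.31, 11.5 and 13.4, and Pdgfra 4.48, 5.39 and 8.21. Fap, a surface protease used as a CAF marker, read 1.19, 2.81 and 5.08, and in region 1 it was near the negative probe. Pan-fibroblast genes held 1.84%, 2.45% and 2.38% of the signal.

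Des, whose protein set the mask, was itself a modest target. It read 4.92, 8.32 and 6.05, a mean of 6.43 ± 1.73 and rank 4084. Among 21 stellate cell genes with a target, 11 were detected, a share of 52.4% beside the 56.0% of all targets, and their median was 4.91. Ecm1, a secreted matrix protein, read 24.2, 27.5 and 29.3, and Cygb, cytoglobin, a globin of stellate cells, 24.5, 24.4 and 27.1. Both were clearly above background in every region. The genes most tied to the quiescent, vitamin A-storing state were not: Lrat, which esterifies retinol for storage, read 1.79, 3.05 and 2.59, Gfap 1.34, 2.70 and 2.16, and Ngfr 2.24, 2.11 and 2.81. Reln, reelin, stood between at 6.72, 5.27 and 4.97.

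Of the fibroblast subtypes, the contractile, matrix-secreting myofibroblast programme was the brightest by its median, 11.7, with 16 of 20 members detected. By region its median was 9.85, 15.8 and 13.1, and that of the antigen-presenting CAF list 6.12, 9.73 and 13.8. The order thus did not hold in region 3. Acta2, smooth muscle actin, read 43.3, 83.6 and 48.3, and Tagln, transgelin, read 18.4, 35.9 and 14.4. Region 2 was the highest for both, as it was for Postn, the matricellular protein periostin, at 32.2, 44.8 and 21.3, and for Thbs1, thrombospondin, at 54.8, 86.3 and 43.1. Tpm1, a tropomyosin, read 57.8, 81.6 and 62.7, and Myl9, a myosin light chain, 9.70, 16.3 and 10.2. Lrrc15, a marker of myofibroblastic CAFs in several cancers, stayed at 1.64, 1.76 and 0.973. Smooth muscle itself was faint, with 4 of 10 members detected and a median of 2.84: Myh11, its myosin heavy chain, read 3.28, 5.98 and 1.84, and Lmod1 0.746, 2.70 and 1.51. Of 12 listed skeletal muscle genes 3 had a target. Only Eno3, at 4.65 ± 1.20, was detected, and Ckm read 1.21 ± 0.554.

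Of 24 listed inflammatory CAF genes 16 had a target, and Il6 was not among them. The 16 had a median of 6.60, and 11 of them (68.8%) were detected, beside 56.0% of all targets. C3 gave by far the highest signal of the list, and hepatocytes make it too. Il33, an alarmin, read 12.2, 8.79 and 27.6, Cxcl12, a chemokine of stromal cells, 6.57, 7.03 and 14.3, and Ccl2, a monocyte attractant, 6.87, 5.86 and 14.2. All 3 were highest in region 3. Lmna, a nuclear lamin, and Plpp3, a lipid phosphatase, completed the top 4 at 17.6 ± 1.14 and 10.5 ± 3.29. Lif, a cytokine of this programme, was near background at 2.05 ± 0.309. In the antigen-presenting CAF list, the median was 9.89 and 7 of 9 members were detected. Cd74, the invariant chain, read 66.0, 91.7 and 122, and the class II chains H2-Ab1, H2-Aa and H2-Eb1 read 47.3 ± 18.4, 31.1 ± 12.8 and 15.1 ± 5.60. Region 1 was lowest for all 9, against 44.2% of all targets. Leukocytes carry the same genes, and Slpi, a mesothelial gene of this programme, was at background with 1.36 ± 0.274.

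Portal fibroblast genes had a median of 8.58, with 10 of 13 detected. Gas6, a ligand of TAM receptors, read 114, 105 and 84.6. Mgp, an inhibitor of calcification, read 20.7, 21.7 and 86.8 and was highest in region 3. Fbn1, fibrillin, read 32.2 ± 13.2. Fbln2, fibulin, read 21.6, 36.8 and 23.9 and Thy1, a surface marker of portal fibroblasts, 8.06, 13.2 and 9.08. Dimmer members were Entpd2 at 5.15 ± 0.197, Slit2 at 3.01 ± 1.02, Ntn1 at 2.66 ± 0.406 and Gli1, near background at 1.44 ± 0.123. Vascular CAF and pericyte genes had a median of 5.42, with 8 of 13 (61.5%) detected, near the 56.0% of all targets. Among them Mcam, an adhesion protein of vessel walls, read 20.9 ± 8.68 and was lowest in region 1. Rgs5, a pericyte regulator of G protein signalling, read 23.4, 17.7 and 12.8 and was highest there. Epas1, a hypoxia-inducible factor, read 18.9 ± 4.92, Esam 10.5 ± 4.31 and Notch3 4.41 ± 1.20. Esam stands in the endothelial list too. Other members were low, with Cspg4 at 2.31 ± 0.658, Cox4i2 at 1.95 ± 0.339 and Gucy1b1 at 3.07 ± 0.703.

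**Figure D3:**
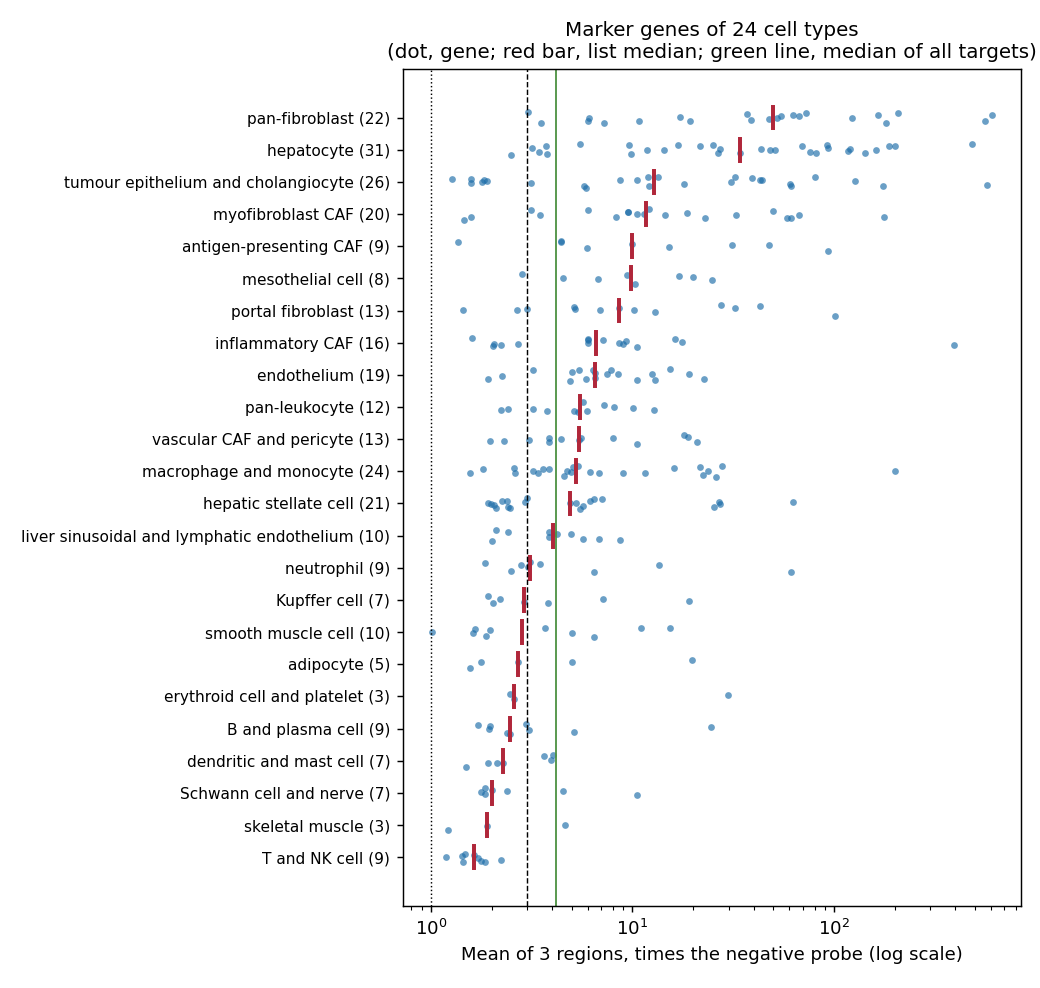
Marker genes of 24 cell types by mean level over 3 regions, in times the negative probe on a logarithmic axis; each dot is a gene, red bars are list medians, the green line is the median of all targets, the dotted line the negative probe and the dashed line 3 times it. Pan-fibroblast and hepatocyte lists lead at 49.7 and 34.1, tumour epithelium follows at 12.7, and T and NK cell genes lie at 1.63.

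Hepatocyte genes were the second brightest cell type list by median in a mask drawn for stroma. Of 31 hepatocyte genes with a target 28 were detected, 9 ranked among the 100 brightest targets, and the median was 34.1. Hepatocyte genes held 2.01%, 1.80% and 2.40% of the signal, a share like that of the pan-fibroblast list. Besides Alb, Apoe and Trf, the vitamin D carrier Gc read 198, 132 and 156. The apolipoproteins Apoa1 and Apoa2 read 142 ± 40.6 and 75.6 ± 32.3. The brightest members encode secreted proteins, and the enzymes named below, which act within hepatocytes, were dimmer. Not every secreted protein was bright, as Apob, another apolipoprotein, read 5.52, 10.7 and 19.2. Cps1, the entry enzyme of the urea cycle, read 13.0, 10.1 and 20.1, Cyp2e1, an ethanol-oxidising cytochrome, 14.3, 6.80 and 29.5, and Cyp1a2, an enzyme of pericentral hepatocytes, 3.13, 2.81 and 3.57. Apoe is also a macrophage gene and Trf is made outside the liver too. The source of these tags, be it hepatocytes within the mask, RNA from beside it or other cells of the tumour, was not tested.

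Genes of tumour epithelium and bile ducts were detected as well. Of 26 tumour and bile duct genes with a target 19 were detected, with a median of 12.7. The 26 held 1.59%, 1.27% and 1.05% of the signal. Spp1 alone gave 5353, 3954 and 3735 of the summed 720786, 724323 and 1024180, a large part of these shares and of their fall. The keratins Krt18 and Krt19, filaments of duct cells, read 153, 112 and 114 and 91.2, 88.7 and 62.5. Cdh1, the epithelial cadherin, read 55.8, 44.1 and 31.2. Like Spp1 they were highest in region 1, as deposited too. Sox9, a duct transcription factor, read 13.7, 12.5 and 9.62, and Krt7 11.9, 12.8 and 15.6. Epcam, an adhesion protein common to carcinomas, was dim at 6.72, 5.63 and 4.97, and Cldn4, Cldn7 and Esrp1, of tight junctions and epithelial splicing, were near background at 1.27 ± 0.497, 1.58 ± 0.128 and 1.58 ± 0.228. Spp1 and Lcn2 are not particular to epithelium, and whether these tags came from cells within the mask was not tested. Lcn2, an iron-sequestering protein also made by neutrophils and hepatocytes, read 31.3, 67.5 and 85.3 and was lowest in region 1, where Krt8, Krt18 and Krt19 were highest.

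Mesothelium, the lining of the liver surface, shares keratins with ducts. Of its 8 genes with a target 7 were detected, with a median of 9.84. Msln, mesothelin, read 26.0, 28.6 and 19.8, Upk1b 22.7, 19.5 and 17.5, and Upk3b 19.0, 18.1 and 13.8, and the transcription factor Wt1 read 10.1, 9.96 and 8.21. How much of the keratin signal came from mesothelium was not tested.

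Endothelial genes were the most uneven class. Of 19 with a target 12 (63.2%) were detected, near the 56.0% of all targets, and the median was 6.51. Cdh5, the endothelial cadherin, read 6.42, 26.5 and 24.3, Pecam1 3.13, 9.73 and 6.59, Kdr, the main receptor for vascular endothelial growth factor, 2.24, 10.2 and 6.59, and Emcn, endomucin, 5.87 ± 3.56 on average. Each of these was lowest in region 1. Flt1, a decoy receptor for the same growth factor, was the brightest of the class at 20.9, 25.7 and 21.0, with regions 1 and 3 about level. Hba-a1, an alpha globin of red cells, was likewise lowest in region 1 at 8.36, 36.1 and 45.0. Markers of liver sinusoids and lymphatics were low, with 4 of 10 detected and a median of 4.04. Stab2 read 2.54, 5.98 and 4.11, Stab1 2.24, 6.45 and 6.16 and Lyve1 1.64, 3.40 and 1.30. Prox1, which cholangiocytes and hepatocytes also express, led at 8.66 ± 1.69, and Flt4 followed at 7.31, 6.45 and 6.70.

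Leukocyte genes were detected at low levels in the CD45-negative mask. Ptprc, the gene of CD45, read 4.18, 5.51 and 6.38. The pan-leukocyte list had a median of 5.50 with 9 of 12 (75%) detected. Macrophage genes had a median of 5.22 and 16 of 24 (66.7%) detected. Over all targets the median was 4.17 and 56.0% were detected. The complement chains C1qa, C1qb and C1qc, made by tissue macrophages, read 26.0 ± 10.9, 23.6 ± 11.4 and 22.3 ± 9.91. C1qa was 14.0, 28.5 and 35.4 by region, Ctss, a lysosomal protease, 16.3, 26.6 and 40.3, and Csf1r, the receptor for macrophage growth factor, 11.6, 18.3 and 18.5. Region 1 was lowest for each. Adgre1, the F4/80 antigen, read 3.43, 3.28 and 7.46, and Cd68 4.18, 5.98 and 8.32. Of 9 genes listed for resident Kupffer cells 7 had a target, with a median of 2.90, and 2 were detected. They were Cdh5, shared with endothelium, and Slc40a1, the iron exporter ferroportin, at 7.11 ± 0.579. Clec4f read 2.90 ± 0.867, Timd4 2.04 ± 0.771, Vsig4 1.92 ± 0.437 and the complement gene C6 3.81 ± 1.08.

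The T and NK cell genes with a target left no clear trace, and B and plasma cell genes were mostly low. Of 19 listed T and NK cell genes only 9 had a target. None of the 9 was detected, against 56.0% of all targets, and their median was 1.63. Cd3g, the brightest, read 1.49, 2.34 and 2.81, and Cd3e 2.39, 1.64 and 1.51. Of 15 listed B and plasma cell genes 9 had a target, with a median of 2.48, and 2 of 9 were detected in every region. Igkc read 1.49, 4.34 and 3.35 and Prdm1 2.24, 3.28 and 3.35. Both passed 3 times the negative probe in regions 2 and 3 but not in region 1. Xbp1 and Sdc1 were detected at 24.5 ± 2.29 and 5.15 ± 1.18, and secretory and epithelial cells express them too, while Cd79b read 1.72 ± 0.470. Of 7 dendritic and mast cell genes with a target, from 16 listed, 1, Kit, was detected, and the median was 2.28. Among 9 neutrophil genes with a target, from 15 listed, Lcn2, S100a9 and S100a8 were detected. The last pair, which form calprotectin, read 13.5 ± 1.91 and 6.46 ± 0.876. Retnlg read 2.79 ± 0.245 and Cxcr2 1.85 ± 1.15.

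The collagens are the fibres of the stroma. Of 20 chains 16 were detected, and the list held 1.51%, 2.11% and 1.97% of the signal. Col4a1 and Col4a2, the chains of basement membrane collagen, read 80.9, 151 and 142 and 52.8, 98.2 and 93.6. Type V, which controls fibril width, read 53.3, 95.5 and 68.0 for Col5a1. Type VI, which forms beaded filaments, was split. Col6a1 read 38.7, 39.4 and 122 and Col6a2 13.9, 15.6 and 81.3, both about alike in regions 1 and 2 and high in region 3, while Col6a3 read 47.5, 61.8 and 54.5. Col11a1, a chain linked to CAFs in human tumours, was low at 2.54, 5.16 and 2.70.

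Other matrix genes followed. Of 23 matricellular and glycoprotein genes 19 were detected, with a median of 22.4. Bgn, biglycan, read 54.5, 93.4 and 68.1. Of 31 remodelling enzymes 24 were detected, with a median of 8.27. P4hb, a subunit of collagen prolyl hydroxylase, read 132, 112 and 131. Mmp14, a membrane-bound collagenase, read 42.5, 58.7 and 94.4, and its inhibitors Timp3 and Timp2 33.7, 73.6 and 58.4 and 43.4, 44.7 and 42.1. Timp2 was level across regions where the other pair was not.

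To compare the regions with each other, each was scaled to a common upper quartile, the value that 75% of its targets stay under. Across targets, Pearson's r of the deposited values, as log2(value + 1), was 0.927 between regions 1 and 2, 0.921 between 1 and 3 and 0.939 between 2 and 3, and Spearman's rho was 0.899, 0.897 and 0.919. Targets are not independent and share probe efficiency, so these describe likeness only. The highest region exceeded the lowest by over 2-fold for 1398 of 13264 targets (10.5%). This share was 31.6% of targets under 2 times the negative probe, 4.25% of those between 5 and 10 times and 6.54% above 50 times. Values lie on a grid of whole steps, but the smallest value is 2, 2 and 4 steps in regions 1, 2 and 3, so whether a step is 1 tag is uncertain. If it is, the squared deviations from equal regions had a median of 1.05 times the counting variance among targets under 2 times the negative probe. The median was 0.887 between 2 and 3 times and 9.64 above 50 times, where counting error alone would give 0.693.

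Among 243 targets with a mean of at least 5 and over 2-fold spread, region 3 was the highest for 130, region 2 for 62 and region 1 for 51, while region 1 was the lowest for 159. Of all targets 31.6% were highest in region 3 and 37.3% were lowest in region 1 after this scaling. The 12 widest were all highest in region 3, under each scaling tried. Some, Fmod, Prrx2, Itm2a and Igfbp2 among them, reached that mean only through region 3. The filter thus partly sets this order and also adds to the 130. On the scaled signal, Fmod, fibromodulin, a proteoglycan that binds collagen, read 7.25, 20.9 and 97.8. Ptn, the growth factor pleiotrophin, read 42.3, 50.1 and 250, Itm2a, a membrane protein, 19.3, 29.1 and 147, and Cd248, endosialin of fibroblasts and pericytes, 37.4, 82.9 and 204. Prrx2, a homeobox gene of mesenchyme, read 18.1, 16.4 and 85.5, and the imprinted gene Mest 35.0, 140 and 201. Col6a2 read 112, 121 and 618. Liver genes were among the 12 as well, Hamp, the iron hormone hepcidin, at 32.6, 87.4 and 280, Orm2, an acute-phase protein, at 33.8, 85.6 and 171, and Igfbp2, a growth factor binder, at 38.7, 27.3 and 136. Acat3, an acetyl-CoA acetyltransferase, read 21.7, 48.3 and 122 and Hba-a1 67.6, 280 and 342. In region 1 Fmod lay under the negative probe, so the size of its 13.5-fold range is uncertain. At the other extreme, Rbfox2, Nedd4 and Rnf10, of splicing and ubiquitin ligation, had a ratio of highest to lowest region that rounds to 1.00 or 1.01, as did Wnk1, Sdf4, Serf2, Gdi2 and G3bp1.

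**Figure D4:**
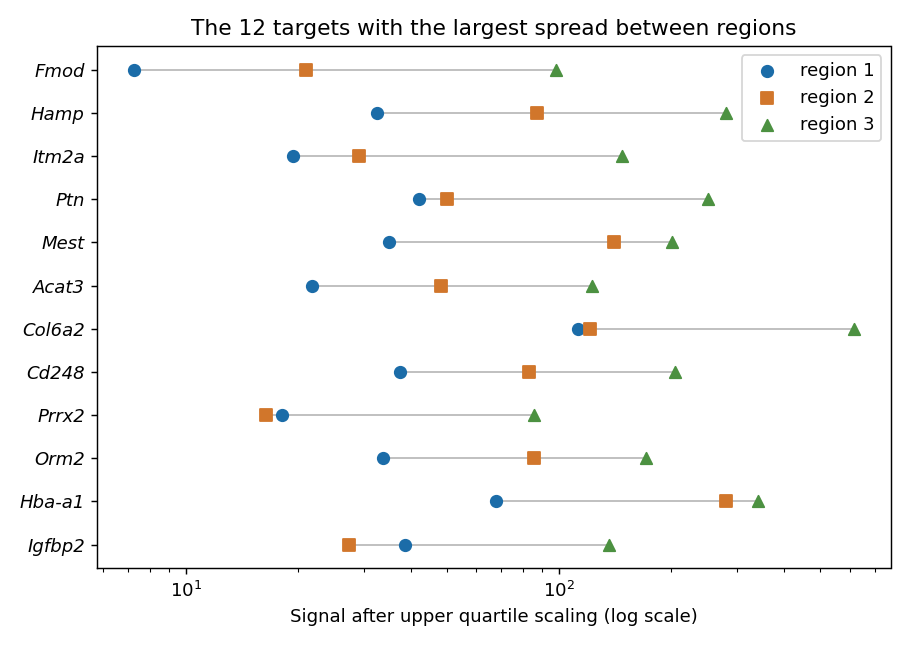
Signal after upper quartile scaling, on a logarithmic axis, of the 12 targets with the largest ratio of highest to lowest region among those with a mean of at least 5 times the negative probe; each point is 1 region. Region 3 is rightmost for all 12, at 97.8 for Fmod and 618 for Col6a2.

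Gene classes differed between regions in distinct ways. Over all targets, 33.9%, 34.6% and 31.6% were highest in regions 1, 2 and 3 after scaling. Region 1 was the highest for 18 of 24 glycolysis and hypoxia genes, and region 3 the lowest for 21, against 33.6% of all targets. Gapdh read 275, 219 and 212 times the negative probe, Pkm, pyruvate kinase, 202, 134 and 116, Eno1, enolase, 150, 108 and 92.5, and Vegfa, the hypoxia-induced vascular growth factor, 51.6, 29.7 and 23.6. Car9, a carbonic anhydrase induced by hypoxia, read 17.3, 15.1 and 9.83. Tumour epithelial genes were highest in region 1 for 15 of 26 and mesothelial genes for 6 of 8, against 11 of 26 and 1 of 8 as deposited. Region 1 was also the lowest for 15 of 19 endothelial genes. Over the list, the median log2 deviation from the geometric mean of the regions was -0.75, 0.64 and 0.16, and 15 of 19 members spread over 2-fold, against 10.5% of all targets.

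Region 2 was the highest for 18 of 20 myofibroblast genes, 15 of 19 endothelial genes, 16 of 20 collagens and 18 of 25 actin and cytoskeleton genes, against 12, 9, 8 and 0 of them as deposited. The actin and cytoskeleton list had a median of 62.4 times the negative probe with all 25 members detected. The myofibroblast median deviated by -0.22, 0.49 and -0.14 on the log2 scale. Region 3 was the highest for 23 of 31 hepatocyte genes, 17 of 24 macrophage genes, 14 of 22 pan-fibroblast genes and 36 of 39 ribosomal protein genes. The deviation of the macrophage median was -0.40, 0.02 and 0.45, that of hepatocyte genes -0.05, -0.16 and 0.40. The ribosomal shift was small, at -0.09, -0.04 and 0.12. Within the hepatocyte list 8 genes went the other way and were highest in region 1, among them Alb, Gc, Ttr, the thyroxine carrier, at 104, 66.5 and 73.8 times the negative probe, and Mup13, a major urinary protein, at 45.7, 22.3 and 11.7. The major urinary protein genes are near copies of each other, and which of them the probe reads is uncertain. As deposited, collagen, endothelial, mesothelial, tumour epithelial and cytoskeletal genes were then also highest most often in region 3, for 12 of 20, 10 of 19, 6 of 8, 14 of 26 and 25 of 25. Myofibroblast genes stayed highest in region 2, for 12 of 20, and glycolysis genes in region 1, for 14 of 24.

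**Figure D5:**
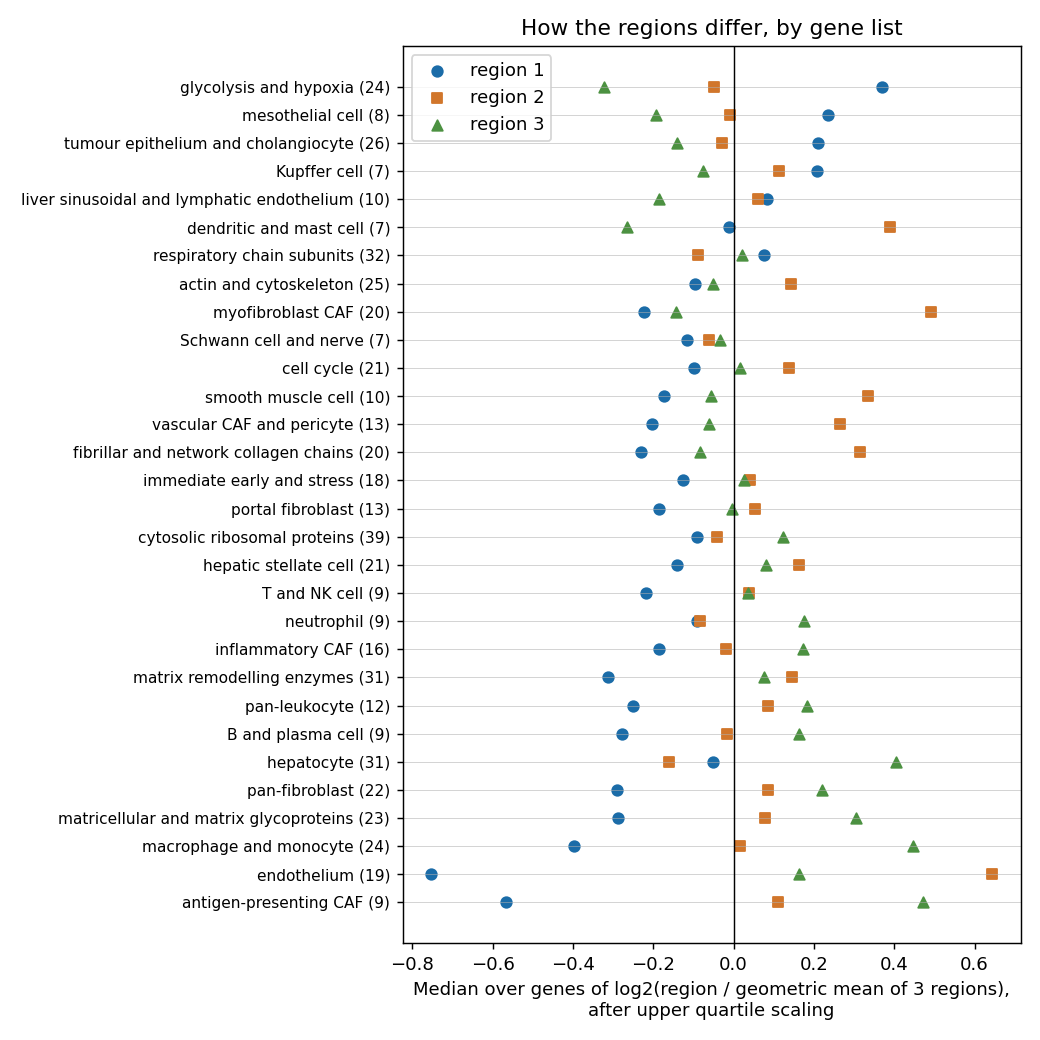
Median over the genes of each list with at least 7 targets of the log2 ratio of a region to the geometric mean of the 3 regions, after upper quartile scaling; the 3 markers of a row are the regions and the number of genes is in parentheses. Glycolysis leads in region 1, myofibroblast and endothelial genes in region 2 (0.49 and 0.64; as deposited endothelium is highest most often in region 3), and macrophage and hepatocyte genes in region 3 (0.45 and 0.40).

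Relative to fibroblast genes the classes also shifted. With the geometric mean of each list divided by that of the pan-fibroblast list, on the scaled signal, endothelium stood at 0.128, 0.250 and 0.158 in regions 1, 2 and 3, tumour epithelium at 0.519, 0.359 and 0.296, and hepatocyte genes at 0.976, 0.674 and 0.757. Glycolysis genes had the widest range of the 8 classes compared, from 0.876 in region 1 to 0.363 in region 3. Macrophage genes kept about the same ratio, at 0.190, 0.183 and 0.195. Dcn, Cd34, Cdh5 and Apoe are examples of the 11 genes that stand in more than 1 cell type list, so the lists are not independent.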

How the data were processed

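GeoMx mouse whole transcriptome probes were read out from Desmin-positive, CD45-negative areas of formalin-fixed tumour cryosections, per the labels' protocols. The authors deposited a signal value per target and region. No source states how tags were counted, targets chosen or values scaled. In each region 99.98% of the signal values were whole multiples of a step within 0.01 step, with medians of 26, 36 and 40 steps, a counting error of 19.6%, 16.7% and 15.8% if a step is 1 tag, which is uncertain since the smallest values are 2, 2 and 4 steps; depth is otherwise unknown. No count model was used.

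Values were divided by the region's negative probe, or scaled to a common 75th percentile. All 6 columns had a sample, and 0 were left out. No test was made. Members and the 34 gene lists were chosen with earlier results of these data known. Named genes are Col1a1, Spp1, Alb, Krt8, Des, Ptprc and Pdgfrb, the 25 brightest targets, the 4 brightest members of each list and the first 3 of each cell type list, and the 12 largest and 8 smallest spreads with a mean of at least 5. Other named list members were chosen after their values were seen. Of the names, 13203 are symbols and 13 synonyms in the GRCm38.p6 table. The spread calculation was tested on simulated data. Alternatives were other scalings, thresholds, pseudocounts and left-out regions. Python 3.11.15, pandas 2.3.3, scipy 1.17.1 and matplotlib 3.10.9 were used. Values of some list members are not reported here.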

Additional observations from a re-analysis of the deposited data

How the results depend on the processing

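All 720 named gene levels, recomputed with a region left out or as a ratio of means, moved by less than 1 SD of the regions. Neither change can move a mean of these 3 values that far, so that result was fixed in advance. Of 204 list medians recomputed with a region left out or with another average, 185 moved by less than 1 SD of the regions. A median with 1 region left out still shares 2 of the 3 regions with the full one, so this count was partly fixed in advance. The exceptions with the median of the 3 regional ratios were dendritic and mast cell genes (2.46), collagens (30.5), respiratory chain (17.5) and cytoskeleton (60.7). With 1 region left out, medians ranged from 6.22 to 7.39 for inflammatory CAF genes, 2.54 to 3.38 for Kupffer cells, 1.51 to 1.62 for T and NK cells, 2.08 to 2.80 for dendritic and mast cells, 32.4 to 45.9 for collagens, 21.1 to 21.8 for matricellular genes, 16.9 to 17.2 for the respiratory chain and 60.5 to 64.4 for the cytoskeleton. At 5 times the negative probe 4540 targets were detected. With the negative probe subtracted the 100 brightest held 17.1% of the signal. Targets spreading over 2-fold numbered 2760 as deposited and 243 with a mean of at least 5, 222 spread over 3-fold, and with 1 region left out, and so only 2 compared, 499 to 761 spread over 2-fold. The correlation over detected targets was 0.941 between regions 1 and 2 and 0.953 between 2 and 3, and with a pseudocount of 5 it was 0.937 between 1 and 2.

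Of 54 shares of list members highest in a region, 45 stayed within the binomial interval. That interval treats the genes of a list as independent, which they are not, so it does not measure uncertainty between regions. As deposited the share was 60% for myofibroblast genes, 40% for collagens and 47.4% for endothelium in region 2, and 95.8% for macrophage and 100% for ribosomal genes in region 3. Quantile scaling gave 66.7% for ribosomal genes. With 1 region left out the share ranged from 78.9% to 94.7% for endothelium, 79.2% to 87.5% for macrophages and 75% to 91.7% for glycolysis. Only a region other than the leading one was left out, so these shares could not fall. Region 3 is brighter throughout, so deposited values raise it by construction. At a median of 26 to 40 steps per target, depth limits differences between single regions for dim targets. No paired analysis was possible because no comparison between groups was made.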

Other observations

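Immediate early and stress genes were detected for 16 of 18 members with a target, with a median of 7.95 times the negative probe. Jund and Junb, subunits of the AP-1 transcription factor, read 59.2 ± 4.43 and 30.9 ± 0.917 (SD, n = 3 regions), while Fos, their rapidly induced partner, read 2.54, 3.16 and 3.89. Hspa5, a chaperone of the endoplasmic reticulum, read 52.1, 43.8 and 63.1 and Hspb1, a small heat shock protein, 13.9, 14.7 and 25.7. Cell cycle genes had a median of 4.44 with 11 of 21 (52.4%) detected, near the 56.0% of all targets. Ccnd1, cyclin D1, stood out at 22.7, 37.9 and 27.8, whereas Mki67, a marker of dividing cells, read 5.52, 6.92 and 6.05 and Top2a 2.24, 4.34 and 3.13.

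All 32 respiratory chain genes and all 39 ribosomal protein genes with a target were detected, with medians of 16.8 and 75.8, and no member of either spread over 2-fold between regions. Of 4 Y-linked genes 3 were detected, Eif2s3y at 8.60 ± 1.47, Ddx3y at 7.90 ± 0.759 and Uty at 3.89 ± 0.695, and Kdm5d read 4.92, 2.58 and 3.89. The labels give no sex for the mice or the tumour line. Schwann cell genes had a median of 2.02, with Mbp alone detected at 10.5 ± 1.71. Among adipocyte genes, with a median of 2.72, Fabp4, a fatty acid binder that endothelium also expresses, read 6.57, 25.3 and 27.0, like Cdh5 lowest in region 1. Of 3 erythroid and platelet genes with a target, from 12 listed and with a median of 2.58, Hba-a1 was detected.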
